A study of Mus musculus with 2 samples.

Results

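A set of 8 genes for noncoding RNAs that act in the nucleus or as the structural core of ribonucleoprotein particles was followed in RNA of the newborn mouse heart. They were Malat1, Gm37376, Neat1, Gm42418, Rn7sk, Rn7s1, Rn7s2 and Rmrp, listed by symbol and found in both gene tables by gene identifier, so that 8 of the 43346 mouse genes in each table are described. Overlapping or identical copies were summed, which left 6 units. These were the Malat1 locus (Malat1 with Gm37376), Neat1, Gm42418, Rn7sk, 7SL RNA (Rn7s1 with Rn7s2) and Rmrp. The genes had been listed with their values in these libraries known, so their levels are given as a description and carry no test.

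The libraries form 1 group. Both used RNA above 200 nt from the heart of a B6NCrl mouse at postnatal day 0, at an input of 13 pg, an amount the labels equate with 1 cell. Replicate 1 came from pup 1 and replicate 2 from pup 3. There is no treatment, no genotype contrast and no control, sex was not recorded, and both libraries carry the same donor identifier. The labels name a Smart-seq protocol, a way of copying very small amounts of RNA into full-length cDNA. RNA of a heart mixes cell types, and fewer cells of a type cannot be told apart from less RNA per cell.

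Mouse genes held 39671930 expected counts in replicate 1 and 32751851 in replicate 2, an expected count being an estimated number of reads. A count of 0 was given an upper limit of 3 counts by counting error alone, a limit on 1 side (the exact interval with both bounds reaches 3.69 counts), or 0.0756 and 0.0916 counts per 1000000 mouse counts (CPM). All 8 heart markers examined were read, between 29.8 and 13940 TPM in replicate 1 and between 43.3 and 23510 TPM in replicate 2, where TPM is a level per length, in transcripts per 1000000. Of 8 markers of other tissues, 7 were at 0 in each library, and the remaining one reached 1.23 and 0.388 TPM. Spike-in RNA took 2.40% and 1.27% of all counts.

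Malat1 RNA is a long, nuclear-retained transcript that gathers in nuclear speckles, bodies rich in splicing factors. Neat1 RNA is the scaffold of paraspeckles, and its long form is the one that builds them. The other RNAs are RNA polymerase III products or ribosomal in position: 7SK RNA, encoded by Rn7sk, holds the elongation kinase P-TEFb inactive, 7SL RNA is the backbone of the signal recognition particle that brings nascent secreted proteins to the endoplasmic reticulum, and the RNA encoded by Rmrp is the core of RNase MRP, which takes part in ribosomal RNA processing. Gm42418 is an annotated long noncoding RNA that lies over a ribosomal RNA gene model.

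The sequences shown here are the 7SK RNA stretch aligned to its copy and the end of the short Malat1 model. Which bases decided the assignment of reads was not analysed. The sequences were read from GENCODE M21 transcripts on GRCm38, the assembly also called mm10, and are written 5′ to 3′ in DNA letters. Rn7s1 (chr12:69159295-69159594, plus strand) and Rn7s2 (chr12:69361182-69361481, minus strand) each give an RNA of 300 bases, and the RNAs differ by 0 mismatches, so no base tells these genes apart. Of Rn7sk (chr9:78175303-78175633, minus strand, 331 bases), bases 5 to 242 are shown. The capital marks the single base within that stretch at which its copy Gm26315 differs. Gm26315 is 321 bases long and was aligned over these 238 bases only. Of the short Malat1 model (2 exons, at chr19:5801916-5802671, minus strand), the last 300 of 485 bases are shown, and the capitals mark the 182 bases that Gm37376 covers on the opposite strand.
Rn7sk: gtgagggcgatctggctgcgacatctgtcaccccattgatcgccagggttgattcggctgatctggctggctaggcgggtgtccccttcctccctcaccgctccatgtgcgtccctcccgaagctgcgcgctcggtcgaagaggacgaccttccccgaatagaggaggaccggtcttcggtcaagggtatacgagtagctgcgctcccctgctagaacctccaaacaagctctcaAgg
Malat1, short model: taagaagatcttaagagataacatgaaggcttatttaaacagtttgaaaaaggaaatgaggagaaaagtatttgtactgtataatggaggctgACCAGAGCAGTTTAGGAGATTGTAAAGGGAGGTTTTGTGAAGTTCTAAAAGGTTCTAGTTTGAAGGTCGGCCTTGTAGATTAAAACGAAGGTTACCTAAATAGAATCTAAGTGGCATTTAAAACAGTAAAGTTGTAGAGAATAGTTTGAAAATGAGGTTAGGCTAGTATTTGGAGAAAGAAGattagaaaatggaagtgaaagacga

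Summed, these RNAs accounted for 1.88% of TPM in replicate 1 and for 1.70% in replicate 2 (1.79% ± 0.130, SD, n = 2). With all Malat1 locus counts on the full-length model the mean was 0.726%. In expected counts they took 1.67% and 0.836%, a mean of 1.25% ± 0.587. The Malat1 locus and Gm42418 made up almost all of it, with 99.9% of the counts on the 8 genes in replicate 1 and 97.4% in replicate 2. The 8 genes also held 74.6% and 61.8% of the counts on the 13058 noncoding genes of the nuclear genome that are not pseudogenes.

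With counts on the gene models as deposited, TPM levels (rescaled over mouse genes) formed a high and a low set in replicate 1. They did not in replicate 2, where 7SL RNA lay between the sets. In replicate 1, Gm42418 (9454 TPM) and the Malat1 locus (9340 TPM) stood far above Rn7sk (30.6 TPM) and 7SL RNA (14.8 TPM), with Neat1 and Rmrp below 0.1 TPM. In replicate 2 the order was the Malat1 locus (13421 TPM), Gm42418 (2302 TPM), 7SL RNA (1242 TPM), Rn7sk (40.4 TPM), Rmrp (0.215 TPM) and Neat1 (0.0613 TPM). The place of the Malat1 locus rests on the gene models to which its reads were assigned: with all its counts on the full-length model it stood at 592 and 835 TPM, below Gm42418 in both libraries and below 7SL RNA in replicate 2. The neighbours in the order of means changed places between the libraries: Gm42418 and the Malat1 locus, 7SL RNA and Rn7sk, and Neat1 and Rmrp did not differ beyond their spread. The lowest value of Gm42418 lay above the highest of 7SL RNA, and the lowest of Rn7sk above the highest of Rmrp and Neat1. The word abundant therefore goes against the reads of Neat1 and Rmrp in both libraries, and the 8 genes are called here by their kind. Whether few reads mean little RNA in the heart was not tested.

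**Figure D1:**
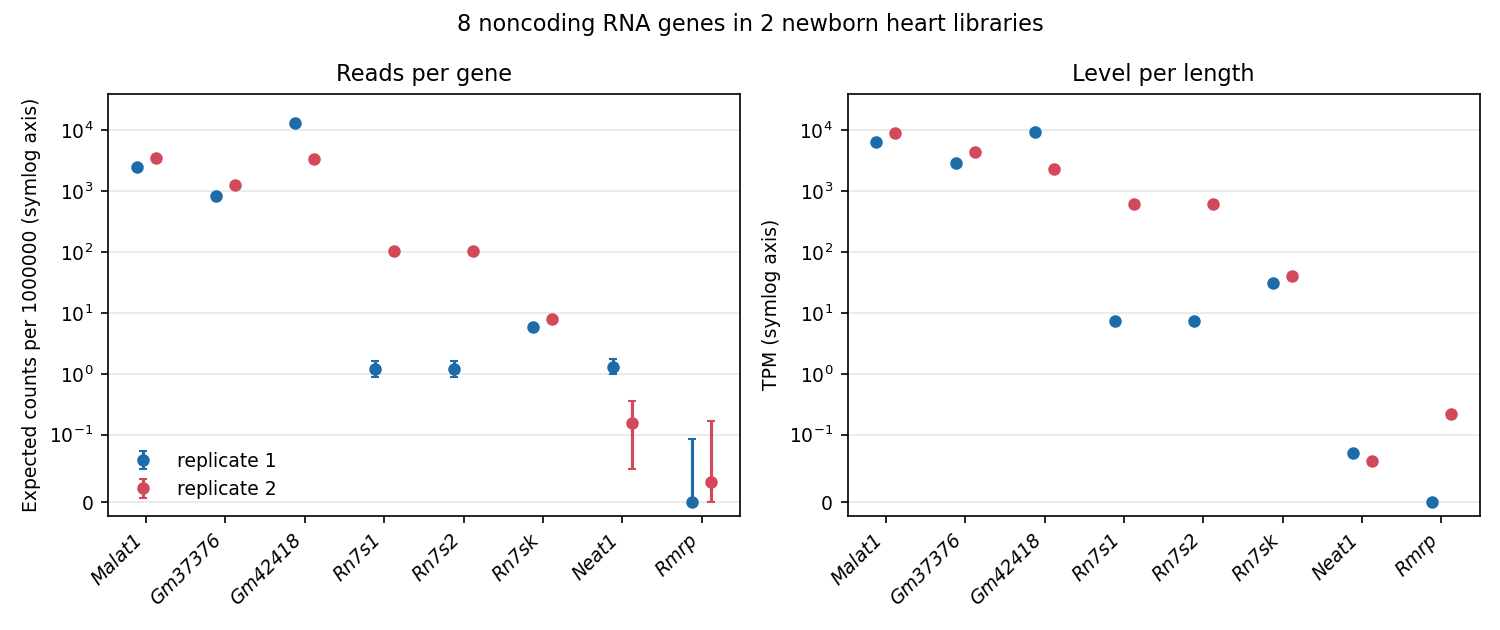
Expected counts per 1000000 (left, with exact 95% Poisson intervals) and TPM (right) of the 8 genes in replicate 1 and replicate 2, on symlog axes that are linear below 0.1. Malat1, Gm37376 and Gm42418 lie at 834 CPM or more in both libraries, Rn7s1 and Rn7s2 move from 1.21 to 104 CPM, and Rmrp lies at or next to 0.

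Of the 6 units, 2 were over 2-fold apart between the libraries on the log2(TPM + 1) scale, Gm42418 lower and 7SL RNA higher in replicate 2. Neat1 and Rmrp, below 1 TPM in both libraries, could not be called on that scale. Of the 13941 mouse genes read in either library, 46.9% were over 2-fold apart. Of all 10371 mouse genes whose mean was at least 1 TPM, 59.8% were this far apart, 30.7% higher and 29.1% lower in replicate 2. The share was 20.0% among 1241 genes at 100 TPM or above and 9.93% among 151 genes at 1000 TPM or above. A count of 2 in 6 is therefore no result about these RNAs, and each unit is set beside genes of its own level instead. Scaling by spike-in counts in place of TPM moved the median log2 ratio of the 10371 genes from 0.04 to 0.90. On that scale the Malat1 locus was at 1.47, Rn7sk at 1.20, Gm42418 at -1.06 and 7SL RNA at 6.72, so the directions stayed and the Malat1 locus and Rn7sk passed 2-fold.

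**Figure D2:**
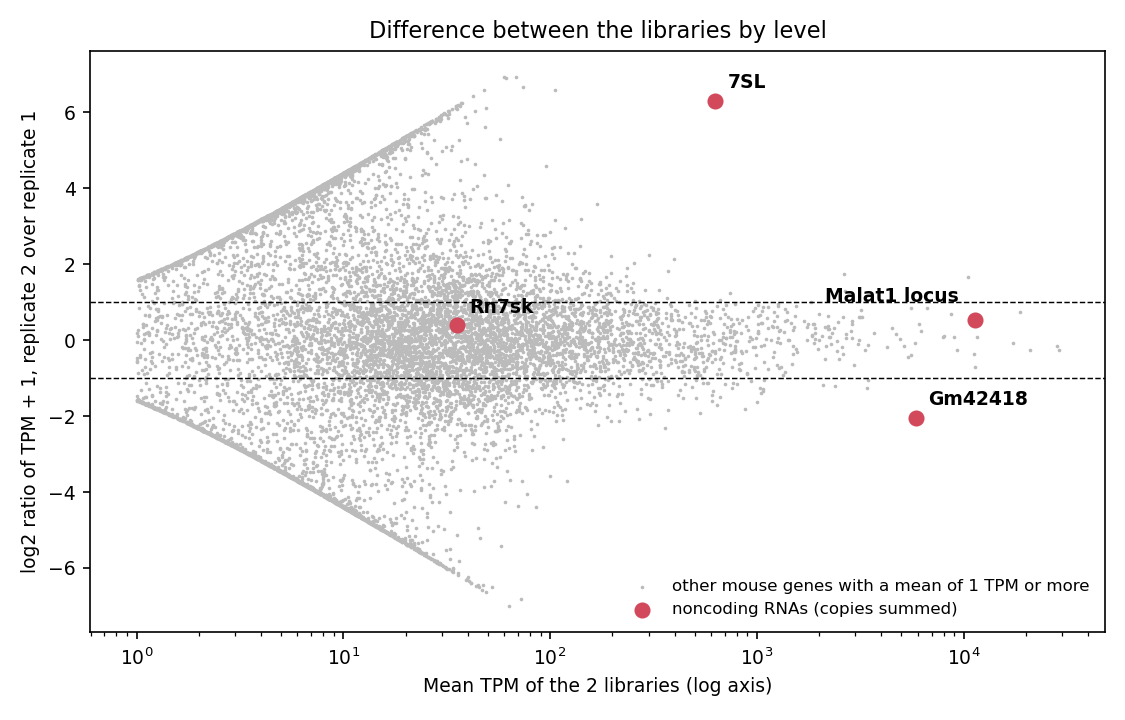
Log2 ratio of TPM + 1, replicate 2 over replicate 1, against the mean TPM of the libraries (log axis) for the other mouse genes whose mean is at least 1 TPM (grey) and the noncoding RNA units at that level (red); dashed lines mark 2-fold. 7SL RNA is at 6.30, at a mean that replicate 2 alone carries, and Gm42418 is at -2.04, while Rn7sk at 0.39 and the Malat1 locus at 0.52 lie among the grey points.

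With counts on the gene models as deposited, the Malat1 locus had the highest mean TPM of the 6 units (11381 ± 2885 TPM, rescaled). It was higher in replicate 2. By CPM, Gm42418 had the higher mean, 8332 against 4064. Malat1 (ENSMUSG00000092341.2, chr19:5795690-5802672, minus strand) had 98506 expected counts and 6445 TPM in replicate 1 and 115783 counts and 9116 TPM in replicate 2 (7781 ± 1888 TPM). By TPM it ranked 16 and 11 among mouse genes. Gm37376 (ENSMUSG00000102349.1, chr19:5801941-5802393, plus strand), a model of the class TEC, which marks models that still await experiment, lies wholly inside Malat1 on the other strand. Its 33098 and 41758 counts gave 2895 and 4305 TPM. Reads of a gene and its antisense partner cannot be told apart here, because no rule for strand is given in the sources used here.

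Summed, the locus held 131604 counts (9340 TPM) in replicate 1 and 157541 counts (13421 TPM) in replicate 2. This is 1.44-fold higher in replicate 2 by TPM and 1.45-fold by CPM, with a counting interval of 1.44 to 1.46. Among the 17 other genes whose mean TPM was within 2-fold of its own, the log2 ratio ran from -1.36 to 1.65, and 4 of them lay as far or further in the same direction as the locus at 0.52. The difference was therefore within the range of genes at its level.

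Which Malat1 model the reads were placed on set the level. The short model of 485 bases, whose 2 exons lie within the first 757 bases of the locus, received 79274 and 95251 counts, or 80.5% and 82.3% of the counts on Malat1. The full-length model, 6983 bases long, received 19232 and 20521 counts, 19.5% and 17.7%. In TPM, which divides by length, the deposited share of the short model was 98.66% and 98.80%, and that of the full-length model was 1.34% and 1.19%. A pair of other spliced models, which lie beyond base 5209 of the locus, had at most 2.64 counts in either library. A further deposited Malat1 transcript, with no match in GENCODE M21, had 0 and 8.44 counts.

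Gm37376 covers bases 280 to 732 of the full-length model. It overlaps the exons of the short model by 182 bases, the stretch in capitals above, and its intron by 271 bases. The short model and Gm37376, both confined to 757 of 6983 bases (10.8%), together held 85.4% and 87.0% of the locus counts. Placing all locus counts on the full-length model instead gave 592 TPM in replicate 1 and 835 TPM in replicate 2. These were 15.8-fold and 16.1-fold lower than the summed levels of Malat1 and Gm37376. The rank of the locus then changed to 270 and 172. Its mean of 714 TPM then lay below the 5878 TPM of Gm42418, and in replicate 2 it also lay below 7SL RNA at 1242 TPM. The ratio between the libraries hardly moved, at 0.50 on the log2 scale.

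**Figure D3:**
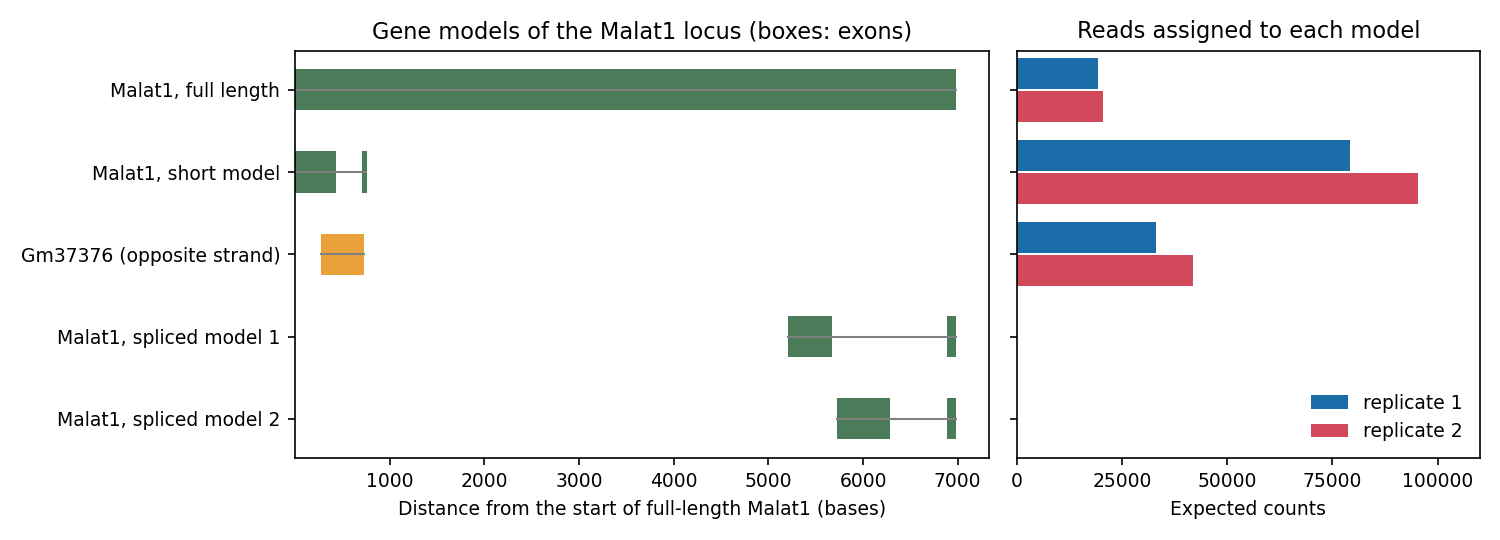
Gene models of the Malat1 locus by distance in bases from the start of the full-length model (left, boxes are exons, lines introns) and the expected counts assigned to each in replicate 1 and replicate 2 (right). The short model and Gm37376, both within the first 757 bases, hold 85.4% and 87.0% of the counts of the locus.

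Gm42418 was the highly abundant unit that differed most between the libraries, and it was lower in replicate 2. Gm42418 (ENSMUSG00000098178.1, chr17:39846958-39848788, plus strand) had 528818 counts in replicate 1 and 109221 in replicate 2. Its level was 9454 TPM (rank 11) against 2302 TPM (rank 62), 4.11-fold higher in replicate 1. By CPM, at 13330 and 3335, the ratio was 4.0-fold, with a counting interval of 3.97 to 4.02. Across the 33 genes within 2-fold of its mean the log2 ratio ran from -1.27 to 1.65, and 0 of them were as low as the -2.04 of Gm42418. That window ran from 2939 to 11755 TPM, and the 2302 TPM of Gm42418 in replicate 2 lay below it. Genes at that lower level were not set beside it.

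Gm42418 lies wholly under the ribosomal RNA gene model CT010467.1 on the opposite strand, over 1831 bases, and the model AY036118 overlaps it by 923 bases, also on the opposite strand. Reads of these models are not analysed here, and without a strand rule they cannot be told apart from those of Gm42418. The adjacent model Gm26917 (22806 and 12651 counts) stood at 219 and 143 TPM, a log2 ratio of -0.61, in the same direction as Gm42418 and smaller. Of the mitochondrial ribosomal RNAs, mt-Rnr2 stood at 7744 and 8233 TPM and mt-Rnr1 at 1165 and 1388 TPM, log2 ratios of 0.09 and 0.25. The share of ribosomal RNA left in each library was not measured in another way, and its part in the Gm42418 difference was not tested.

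7SL RNA differed more between the libraries than any other unit. Rn7s1 (ENSMUSG00000099021.1) and Rn7s2 (ENSMUSG00000099250.1) had 48 counts each in replicate 1 and 3419 each in replicate 2. Their sequences are identical. The authors' deposited posterior means were 42.3 ± 25.5 and 51.5 ± 25.5 in replicate 1, and 3566 ± 1716 and 3272 ± 1715 in replicate 2 (posterior SD). The split between the copies was thus uncertain, and the sum is used.

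Summed, 7SL RNA had 96 counts, 2.42 CPM and 14.8 TPM in replicate 1 and 6838 counts, 209 CPM and 1242 TPM in replicate 2. It was 86.3-fold higher in replicate 2 by CPM, with a counting interval of 70.5 to 107, and 83.9-fold by TPM. Its mean of 628 ± 868 TPM (SD, n = 2) rests on replicate 2 alone, so the genes taken as being at its level depend on that library. The 326 genes within 2-fold of that mean had log2 ratios from -2.30 to 2.14, against 6.30 for 7SL RNA. Among the 3099 genes with a mean of 17.8 to 71.0 TPM, nearer its level in replicate 1, the highest ratio was 6.92, beyond that of 7SL RNA. How many of them passed 6.30 is not given here. At such a mean, a ratio this high needs a level near 0 in replicate 1, where 7SL RNA stood at 14.8 TPM. The 6 annotated copies of 7SL RNA outside these genes, at 90% identity over 50% of their length or more, held 0 and 12.9 counts in all, so they hold little of the difference.

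Rn7sk (ENSMUSG00000065037.1), which encodes the inhibitor RNA of P-TEFb, differed little between the libraries by TPM and expected counts. It had 229 counts in replicate 1 (exact Poisson interval 200 to 261) and 257 in replicate 2 (227 to 290), 30.6 and 40.4 TPM (35.5 ± 6.97), and ranked 3370 and 2748. By CPM it was 1.36-fold higher in replicate 2, with a counting interval of 1.13 to 1.63. Its log2 ratio of 0.39 by TPM lay well inside the -7.00 to 6.92 of the 3099 genes at its level. Its deposited posterior mean count in replicate 1 was 175 ± 51.5, below its 229 expected counts, and in replicate 2 it was 250 ± 5.51. By posterior mean counts per 1000000 the log2 ratio was larger, at 0.67.

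Its copy Gm26315 held 45.9 counts in replicate 1 and 0 in replicate 2. Over the 238 bases shown above it differs from Rn7sk by A240T, where A is the Rn7sk base, the number counts from 1 at its 5′ end and T is the base of the copy. With all annotated copies added, Rn7sk had 275 and 257 counts, and its log2 ratio came to 0.13 by TPM and 0.16 by CPM. The 7SK ratio thus moved toward 0 when the copies were added, and that of 7SL RNA stayed at 6.30.

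Neat1 and Rmrp were close to absent from the reads. Neat1 (ENSMUSG00000092274.2, chr19:5824708-5845478, minus strand) had 52 counts in replicate 1 (interval 38.8 to 68.2) and 5 in replicate 2 (1.62 to 11.7), or 1.31 and 0.153 CPM, 8.59-fold higher in replicate 1 with a counting interval of 3.45 to 27.5. With annotated copies added it had 1.94 and 0.466 CPM, 4.16-fold, and 29.3 and 25.1 TPM. The 13 copies that were read are models of at most 126 bases, and all 13 are also copies of the Malat1 locus. In TPM it stood at 0.0729 and 0.0613, almost equal, with the reads of the libraries placed on models of different length. All 52 counts of replicate 1 went to the long model of 20771 bases, the paraspeckle-building form, and all 5 of replicate 2 to the short model of 3004 bases. Posterior means kept 50.1 ± 1.82 counts on the long form in replicate 1 and 0.87 in replicate 2. The small RNA genes Gm27533, Gm27505 and Gm28006, which lie inside Neat1, had 0 counts in both libraries.

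Rmrp (ENSMUSG00000088088.1, chr4:43492788-43493058, minus strand, 271 bases) had 0 counts in replicate 1 and 1 in replicate 2, both under the floor of 3 counts, and no ratio is read from them. The protein-coding gene Ccdc107 overlaps it by 159 bases on the other strand and had 1682 and 1632 counts. In GENCODE M21 another Rmrp model on the same strand (chr4:43492783-43493063) covers all 271 bases. That model is not among the deposited genes. Rpph1, the RNA of RNase P, a particle that shares protein subunits with RNase MRP, was read at 101 and 88 counts (14.2 and 14.6 TPM). RNase P RNA was thus read in both of the libraries in which Rmrp was under the floor.

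The other genes of the same RNA classes were mostly at 0. Of 562 genes annotated as misc_RNA, the class of 7SK and 7SL RNA, 538 were at 0 in both libraries and 5 had 3 counts or more in both. 7SK and 7SL RNA held 49.0% of the counts on the class in replicate 1 (663 counts in all) and 98.0% in replicate 2 (7238 counts in all). The small nuclear RNAs had 1366 of 1383 genes at 0 in both libraries and the small nucleolar RNAs 1442 of 1484. These zeros include 193 small nuclear, 456 small nucleolar and 59 misc_RNA genes with a deposited effective length of 0, which could be given no level. The labels give a size range above 200 nt, and its part in these zeros was not tested.

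The structured small RNAs of the chosen list were also mostly at 0, 19 of 26 in both libraries. Snord118, the U8 small nucleolar RNA that takes part in ribosomal RNA processing, had 24 and 64 counts (20.6 and 64.9 TPM). Rnu2-10, an RNA of the U2 spliceosomal particle, had 0 and 36.75 counts (0 and 14.6 TPM). Of the 5 whose mean reached 5 TPM, 3 were over 2-fold higher in replicate 2 and 0 lower. Of these 3, Rnu2-10 and Rny1, at 0 in replicate 1, reached that mean only through replicate 2, so the count is not read further. Of all 8266 mouse genes at that mean, 54.6% were over 2-fold apart, 27.7% higher and 26.9% lower.

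The proteins that bind each RNA were read next, from lists chosen by function. Of the 9 signal recognition particle proteins and receptor subunits in the tables, each reached 1 TPM in both libraries, with 3 over 2-fold higher and 1 lower in replicate 2. The median log2 ratio was 0.44. Of all 8266 genes at a mean of 5 TPM, 54.6% were over 2-fold apart, 27.7% higher and 26.9% lower, with a median of 0.01. Srp14, which with Srp9 binds the Alu end of 7SL RNA, stood at 174 and 171 TPM. Srp9 itself stood at 14.5 and 130 TPM, and Srp19, which binds the other end of the RNA, at 72.4 and 146 TPM. Over the 9 genes the log2 ratio ran from -1.94 to 3.08, against 6.30 for 7SL RNA.

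Of 8 proteins of the 7SK particle and P-TEFb, 5 reached a mean of 5 TPM, of which 2 were over 2-fold higher and 1 lower in replicate 2 (median log2 ratio 0.39), beside 54.6% of all genes at that mean over 2-fold apart. Larp7, which protects the 3′ end of 7SK RNA, stood at 17.5 and 21.3 TPM. Cdk9, the kinase of P-TEFb, had 0 and 1485 counts (0 and 35.4 TPM), and Ccnt2, a cyclin of P-TEFb, 2171 and 14 counts (24.5 and 0.849 TPM). Cdk9, Ccnt2 and Mepce (0.0104 and 11.9 TPM) each passed the mean of 5 TPM only through the library where they were high. The count and the opposite directions of Cdk9 and Ccnt2 are therefore not read further.

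Of 11 proteins of RNase MRP and RNase P, 6 reached 1 TPM in both libraries, and among the 8 whose mean reached 5 TPM, 3 were over 2-fold higher and 3 lower (median log2 ratio 0.24), beside 54.6% of all genes at that mean over 2-fold apart. Rpp21 stood at 60.1 and 124 TPM, Pop7 at 39.3 and 65.8 TPM and Pop4 at 18.6 and 75.6 TPM. Pop5 had 618 counts in replicate 1 and 0 in replicate 2 (48.0 and 0 TPM). Pop5 and Rpp14 (62.5 and 0.378 TPM) passed the mean of 5 TPM only through replicate 1, so the count is not read further. Protein subunits such as Rpp21, Pop7 and Pop4 were thus read in both libraries, where Rmrp was at 0 or 1 count.

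Proteins of the nuclear bodies were read too. Of 11 paraspeckle proteins, 10 reached 1 TPM in both libraries and 10 a mean of 5 TPM, with 1 over 2-fold higher and 4 lower in replicate 2 (median log2 ratio -0.42), near the 54.6% of all genes at that mean. Hnrnpk stood at 565 and 660 TPM, Nono, a core paraspeckle protein, at 105 and 79.6 TPM, and Matr3, a nuclear matrix protein, at 282 and 59.6 TPM. These levels stood beside a Neat1 level below 0.1 TPM. All 9 nuclear speckle proteins reached 1 TPM in both libraries, 3 over 2-fold higher and 2 lower (median log2 ratio 0.88), again near that 54.6%. The splicing factors Srsf3 and Srsf2 stood at 176 and 272 TPM and at 178 and 49.2 TPM, and Rbm25 at 96.9 and 172 TPM.

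**Figure D4:**
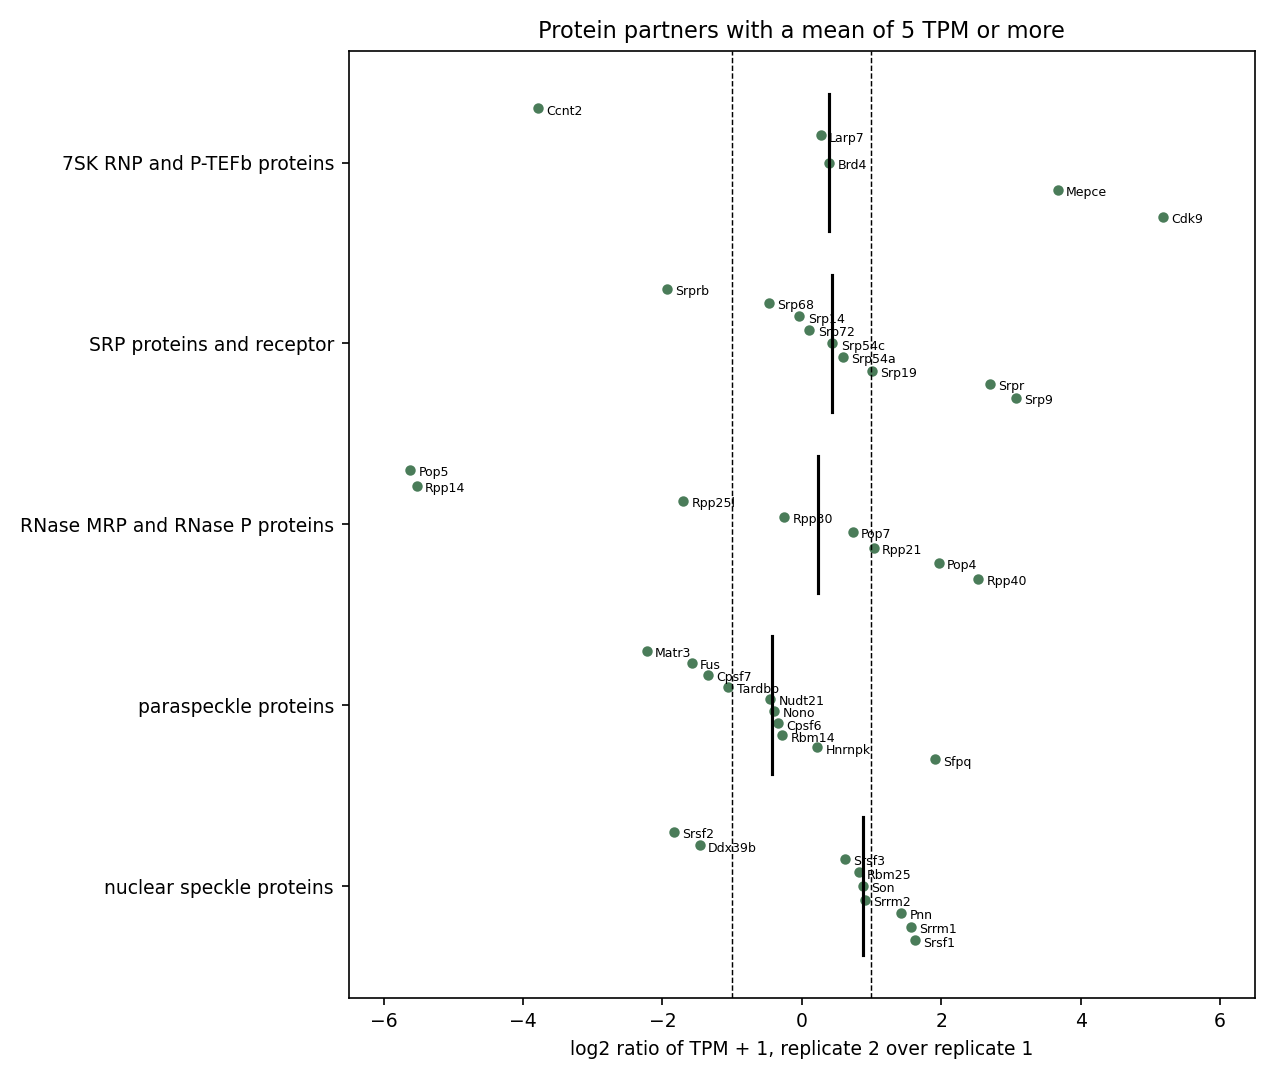
Log2 ratio of TPM + 1, replicate 2 over replicate 1, for proteins of the particles and bodies whose mean reached 5 TPM, 1 point per gene with the list median as a black bar and dashed lines at 2-fold. Cdk9, at 0 in replicate 1, is highest at 5.19 and Pop5, at 0 in replicate 2, lowest at -5.61. The list medians lie between -0.42 and 0.88.

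Other long noncoding RNAs were also described. Of 24 in the tables, 9 reached 1 TPM in both libraries. Among the 13 whose mean reached 5 TPM, 8 were over 2-fold lower and 1 higher in replicate 2 (median log2 ratio -1.32), where 26.9% of all genes at that mean were lower and 27.7% higher. Of those lower, Snhg5, Snhg12 (33.2 and 0 TPM) and Epb41l4aos (19.8 and 0 TPM) passed that mean only through replicate 1. The 1 higher, Xist (0 and 14.0 TPM), passed it only through replicate 2. The counts are therefore not read further. H19, an imprinted RNA high in fetal tissue, stood at 239 and 242 TPM. Gas5, a host gene of small nucleolar RNAs, stood at 322 and 73.0 TPM, Meg3, an imprinted RNA, at 133 and 35.6 TPM, and Snhg5, another such host gene, at 94.5 and 0.0920 TPM. Beside them, the Malat1 locus was higher in replicate 2 and Gm42418 lower.

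The genes whose counts per 1000000 were nearest to each unit in both libraries, by Euclidean distance on the log2 scale over the 2 libraries, were found among protein-coding nuclear genes. For the Malat1 locus they were Fabp3 (distance 0.23) and Tnni3 (0.36), heart genes for fatty acid binding and for troponin I. For Rn7sk they were Carm1 (0.12) and Sbsn (0.16). For Gm42418 the nearest, Eef1a1, was at 1.33 and Tnni1 at 1.41, and for 7SL RNA Cdc27 was at 0.79 and Mmadhc at 0.94, further off than the neighbours of the Malat1 locus and Rn7sk. For Neat1 the nearest were the near-identical genes Tmem254a and Tmem254b at 0.39. A likeness over 2 libraries is a description only.

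Sequence features of the RNAs were read from the same transcripts. Because Smart-seq in its usual form starts copying at a run of A, the longest run of A in each was found. It was 4 bases in 7SL RNA, 3 in Rn7sk and 3 in Rmrp, and these RNAs were 58.0% to 64.2% G and C. Runs as long are common in transcripts within 20% of their length, in 68.2%, 96.3% and 96.0% of them. The short Malat1 model has a run of 5 and Gm37376 one of 4, as in 7SL RNA, and the long Neat1 model, below 0.1 TPM, one of 7. Run lengths and levels are set side by side as a description only. In full-length Malat1 the longest run was 12 bases, 298 bases before the end of the model. Of the 3815 transcripts within 20% of its length, 18.7% hold a run as long. In Gm42418 the longest run was 6 bases, and 49.8% of 16585 transcripts of like length hold one as long. The runs, in capitals, are shown with the 30 bases on each side.
Malat1, full length: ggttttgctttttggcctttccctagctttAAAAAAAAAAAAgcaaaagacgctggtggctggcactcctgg
Gm42418: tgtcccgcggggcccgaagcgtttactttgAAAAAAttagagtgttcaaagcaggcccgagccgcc
Where reads began on these RNAs was not analysed here, and the part of these runs in the levels was not tested.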

How the data were processed

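Expected counts per gene and transcript, which need not be whole, and posterior mean counts with their SD were deposited by the authors, 1 gene table and 1 transcript table per library. TPM was deposited over all rows, spike-ins included, and each transcript's percent of its gene was deposited too. The deposited bounds of the TPM interval, a non-negative signal in TPM units, were not printed. Per the deposited text notes, the assembly was mm10 and the annotation GENCODE M4, and the aligner is not given in the sources used here.

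TPM was rescaled to 1000000 over 43346 mouse genes. Annotation was taken from GENCODE M21 (same assembly). By identifier without version, 42462 genes and 8 of 8 members matched. Gene models can differ between the releases. Copies were aligned with BLAST+ 2.17.0 (90% identity over 50% of the copy's length). With 1 group of 2 libraries no test was made, and the SD is over 2 libraries. Intervals (95%) cover counting error only, since no molecular identifiers are named in the labels. Those of counts are exact Poisson. Those of ratios are exact binomial intervals on rounded counts, given their total, turned into a ratio of CPM. Ratios are log2 of TPM + 1, called beyond 2-fold, and for log2 ratios of CPM 1 was added too. Alternatives were expected or posterior mean counts, TMM (edgeR 4.0.16) and DESeq2 1.42.0 size factors on rounded expected counts, spike-ins, a pseudocount of 0.1 and other denominators.

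Members and lists were chosen with earlier results of these data known. Named genes were the members, copies with a mean of 10 counts or more, the 3 list genes highest in TPM and the one furthest apart between libraries, and the 2 nearest genes per unit. Ccdc107, Gm26917, Gm27533, Gm27505, Gm28006, Rny1, Xist, Mepce, Rpp14, Snhg12 and Epb41l4aos were named after their values were seen. Calculations used Python 3.11.15, numpy 2.4.6, pandas 2.3.3, scipy 1.17.1 and R 4.3.3. The 7SL RNA sequence is not reported here.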

Additional observations from a re-analysis of the deposited data

Results flagged for a closer look

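Each table holds 26248 entries under a bare number in place of a gene name, which the comparisons leave out. In replicate 2 they held 82 expected counts and in replicate 1 they held 0, above the 3 counts that a count of 0 allows. What these entries are is not given in the sources used here.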

How the results depend on the processing

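The share of the library on the 8 genes, 1.79% of TPM, was 1.25% by expected counts and 1.25% by posterior mean counts, 2.06% without mitochondrially encoded genes, and 0.726% with all Malat1 locus counts on the full-length model, an alternative chosen after seeing the data. Leaving out each replicate gave 1.70% and 1.88%. The number of units over 2-fold apart rose from 2 to 4 when counts were scaled by spike-ins, which moved the median log2 ratio of the 10371 genes from 0.04 to 0.90 (67.9% of those genes were then over 2-fold apart); the Malat1 locus was then at 1.47 and Rn7sk at 1.20. It was 3 by CPM, posterior CPM, TMM, DESeq2 and a pseudocount of 0.1. The added unit was Neat1 by the count scales (-1.0 to -1.04, with 1 added to each level) or, with the pseudocount of 0.1, Rmrp (1.65). With nothing added, Neat1 was 8.59-fold apart by CPM, so the size of its ratio here depends on the added 1. The Rmrp value rests on 0 and 1 counts and is not read as a ratio. Of 55 alternative values of the 6 log2 ratios, 0 reversed and 8 passed 2-fold where the reported value had not. Gm42418 ran from -2.11 to -1.06 and 7SL RNA from 5.85 to 6.72. No paired analysis was possible because the libraries form 1 group. Low counts limit what can be said of Neat1 and Rmrp: 52 and 5 counts, and 0 and 1, cannot fix a level or a ratio per length. Why these counts were low was not tested.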

Other observations

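Xist, the long noncoding RNA of X inactivation, had 2 expected counts in replicate 1 and 6789 in replicate 2 (0 and 14.0 TPM). The labels do not record the sex of either pup, and Xist was chosen after its values were seen.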
